A study of Mus musculus with 6 samples.

Results

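The 10 genes described here encode the enzymes that modify collagen before and after it leaves the cell. They comprise the 5 lysyl oxidases Lox, Loxl1, Loxl2, Loxl3 and Loxl4, the 3 lysyl hydroxylases Plod1, Plod2 and Plod3, and the prolyl 4-hydroxylase alpha subunits P4ha1 and P4ha2. They were chosen by name and known function from the 56884 genes of the mouse count table. All 10 were found there, and all 10 passed the filter of at least 10 counts in total over the 6 libraries that 18018 mouse genes passed.

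Collagen is made as a long precursor in the endoplasmic reticulum. Prolyl 4-hydroxylases convert prolines to hydroxyprolines, which keep the triple helix stable at body temperature, and lysyl hydroxylases convert lysines to hydroxylysines. After secretion, lysyl oxidases oxidise lysines and hydroxylysines to aldehydes, from which cross-links form between collagen molecules or between elastin molecules. In the liver, stellate cells and fibroblasts are the main producers of fibrillar collagen, and cross-linking by this family is known for its part in the stiffness of fibrotic and tumor-bearing liver. Several members, among them Lox, Loxl2, Plod2, P4ha1 and P4ha2, are known targets of the hypoxia-inducible factors.

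Bulk total RNA was sequenced from livers of male athymic BALB/c (nu/nu) mice, 6 weeks old, in which human hepatocellular carcinoma cells had been implanted. After 1 week the mice received AAV8-siControl or AAV8-siAATF through the tail vein and were followed for 3 more weeks. The vector, per the study's methods, carries its insert under the TBG promoter, which is active in hepatocytes. The control libraries are labelled WT with control AAV and the others KD, and there were 3 libraries in each group. Every mouse in both groups carried a tumor grown from 1 human cell line, and both groups lacked mature T cells as athymic hosts. The labels do not say that each library came from a separate mouse, and p-values measure the spread between these libraries only.

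The libraries differed strongly in how much mouse RNA they held. Mouse genes had 213022 to 913584 counts in the siControl libraries and 11835898 to 42563694 in the libraries labelled siAATF, or 0.778% to 1.93% against 97.9% to 99.0% of all human and mouse gene counts. A limit of 3 counts corresponded to 1.67 to 7.24 TMM CPM (counts per 1000000 mouse counts after the trimmed mean of M-values scaling) in siControl and to 0.103 to 0.604 TMM CPM in siAATF, covering counting error only. Aatf, the targeted mouse gene, had 12, 1 and 23 counts in siControl against 384, 109 and 340 in the libraries labelled siAATF. Its levels of 8.28 ± 5.33 and 18.01 ± 4.42 TMM CPM (SD, n = 3) did not pass the test (log2 fold change 0.93, SE 0.47, adjusted p = 0.152, edgeR), although the groups did not overlap, and its mRNA was higher in each library labelled KD than in any siControl library. Directions below are therefore those of the libraries labelled siAATF against those labelled siControl. All 10 hepatocyte markers rose, with a summed level of 1995 to 5736 TMM CPM in siControl and 32453 to 82204 in siAATF, and no marker of the tissue was at 0 in a group.

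To see how the collagen-modifying enzymes of the mouse tissue differed between the groups, each gene was compared per unit of mouse RNA. Of the 10 enzyme genes, 7 fell in the libraries labelled siAATF, none rose and 3 did not pass the test (edgeR quasi-likelihood, adjusted p under 0.05 over all genes). Among all tested genes, 14.4% fell and 17.6% rose, 32.0% in all. Lox had the lowest log2 fold change of the 10, at -8.60, followed by Loxl2 and Plod2, and the 3 that did not pass were Loxl4, Plod1 and Plod3. The groups did not overlap in 9 of the 10 genes, all lower in siAATF, against 18.1% of all tested genes that were lower and 34.5% that were higher without overlap. The median log2 fold change of the 10 was -3.41, beside 0.50 for all tested genes. In bulk tissue, fewer cells of a type and less RNA per cell cannot be told apart.

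**Figure D1:**
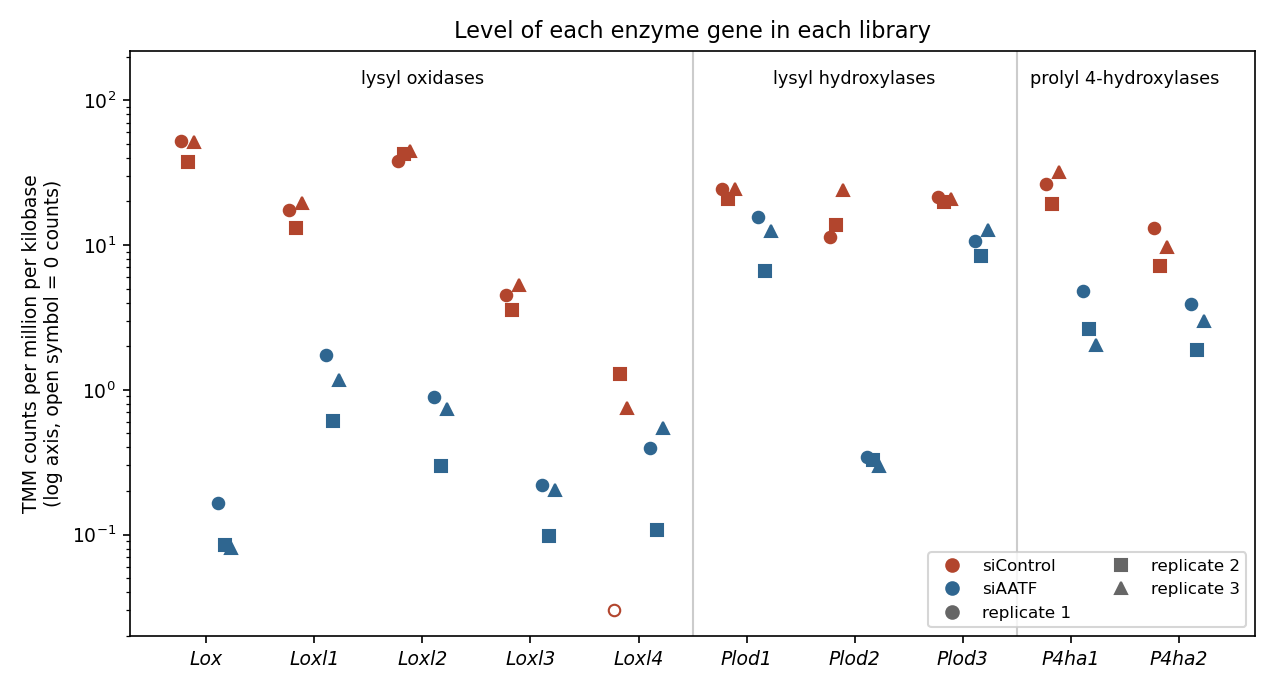
Level of the 10 enzyme genes in each library, in TMM CPM per kilobase on a log axis, with siControl in red and siAATF in blue, a marker shape for each replicate and an open symbol for 0 counts. Lox stands at 47.1 on average in siControl and at 0.110 in siAATF, whereas the points of Plod1 and Plod3 lie close together.

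Per kilobase of gene length, which allows genes to be compared, Lox and Loxl2 had the highest levels in siControl, at 47.1 ± 8.42 and 41.8 ± 3.35 TMM CPM per kilobase. P4ha1, Plod1 and Plod3 followed at 25.8 ± 6.25, 23.1 ± 2.07 and 20.8 ± 0.835, then Loxl1, Plod2 and P4ha2 at 16.7 ± 3.21, 16.4 ± 6.71 and 10.01 ± 2.91. Loxl3 and Loxl4 were lowest at 4.45 ± 0.886 and 0.678 ± 0.648 (SD, n = 3 for each). Neighbours in this order overlapped within each of those first groups and not between them, and Loxl3 and Loxl4 did not overlap. Genes that were not neighbours could still overlap: Plod2 ran from 11.5 to 24.0, across the 19.9 to 21.5 of Plod3. In the libraries labelled siAATF, Lox moved from the highest place to the lowest, at 0.110 ± 0.0480 TMM CPM per kilobase, where its range overlapped those of Loxl3 and Loxl4. Plod1 and Plod3 were then highest at 11.6 ± 4.56 and 10.6 ± 2.22, overlapping each other and no other member.

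Among the lysyl oxidases, Lox (ENSMUSG00000024529, chromosome 18, minus strand), the founding member that acts on both collagen and elastin, had 313, 74 and 440 counts in siControl against 23, 2 and 7 in siAATF. This gave 251, 179 and 245 TMM CPM against 0.793, 0.403 and 0.388. Every siAATF library was thus far below every siControl library, although those libraries held many more mouse counts, and replicate 2 was under the limit of 3 counts. The log2 fold change was -8.60 (SE 0.57, adjusted p = 6.71e-06, edgeR), a level 389-fold lower, and Lox ranked 17 from the lowest of the 18018 tested genes.

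Loxl2 (ENSMUSG00000034205, GRCm39 chr14:69846517-69933283, plus strand), an oxidase of fibrillar and basement membrane collagen, had 257, 95 and 434 counts in siControl against 140, 8 and 72 in siAATF. Its levels were 206, 229 and 242 TMM CPM against 4.83, 1.61 and 3.99. The siControl values lay close together and no siAATF library came near them. Loxl2 fell by 5.96 on the log2 scale (SE 0.53, adjusted p = 2.41e-05, edgeR), or 62.3-fold, and ranked 156 from the lowest.

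Loxl1 (ENSMUSG00000032334, GRCm39 chr9:58195021-58220469, minus strand), which is known for cross-linking elastin, stood at 57.7, 43.4 and 64.1 TMM CPM in siControl against 5.72, 2.01 and 3.82 in siAATF. The groups did not overlap, and the gene fell by 3.80 (log2, SE 0.44, adjusted p = 7.77e-05, edgeR), or 13.9-fold, and its log2 fold change was -7.04 with all libraries thinned to the smallest mouse total. Loxl3 (ENSMUSG00000000693, GRCm39 chr6:83011154-83029543, plus strand), a close relative of Loxl2, was rarer, with 23, 6 and 39 counts in siControl against 26, 2 and 15 in siAATF. It fell from 18.2 ± 3.63 to 0.710 ± 0.268 TMM CPM (SD, n = 3), a log2 fold change of -4.58 (SE 0.50, adjusted p = 5.86e-05, edgeR). Exons of Loxl3 share 13.1% of their bases with Htra2 on the opposite strand, and whether strand was used in counting is not stated.

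Loxl4 (ENSMUSG00000025185, GRCm39 chr19:42582421-42601252, minus strand) was the only lysyl oxidase that did not pass the test. It had 0, 2 and 5 counts in siControl against 43, 2 and 37 in siAATF, which gave 0, 4.83 and 2.79 TMM CPM against 1.48, 0.403 and 2.05. The groups overlapped, 2 of the siControl values and 1 of the siAATF values were below the limit of 3 counts, and the test did not pass (log2 fold change -0.64, SE 1.08, adjusted p = 0.675, edgeR). With single libraries left out, the log2 fold change of Loxl4 ran from -1.35 to -0.15.

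The lysyl hydroxylases divided between 1 gene that fell and 2 that did not pass the test. Plod2 (ENSMUSG00000032374, GRCm39 chr9:92424276-92490481, plus strand) encodes the enzyme that hydroxylates lysines of the collagen telopeptides, the short ends at which cross-links are anchored. It had 53, 21 and 160 counts in siControl against 37, 6 and 20 in siAATF, or 42.5, 50.7 and 89.1 against 1.28, 1.21 and 1.11 TMM CPM. The siAATF libraries were nearly alike and all far below siControl, where replicate 3 was highest. The log2 fold change was -5.67 (SE 0.46, adjusted p = 2.13e-05, edgeR), 50.8-fold lower, and 9.32% of the exon bases are shared with B430319G15Rik on the opposite strand, a gene with 6 counts in all.

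Plod1 (ENSMUSG00000019055, GRCm39 chr4:147994210-148021224, minus strand), which hydroxylates lysines within the helix, stood at 87.4, 74.8 and 88.0 TMM CPM in siControl against 56.3, 24.0 and 45.4 in siAATF. Plod3 (ENSMUSG00000004846, GRCm39 chr5:137015873-137025502, plus strand), whose product also attaches sugars to hydroxylysine, stood at 70.6, 65.1 and 68.5 against 35.2, 27.4 and 41.9. In both genes the groups did not overlap, yet neither passed the adjusted threshold. The log2 fold change was -0.99 for Plod1 (SE 0.40, adjusted p = 0.0755, edgeR) and -0.97 for Plod3 (SE 0.35, adjusted p = 0.0508, edgeR). Both passed under DESeq2, with adjusted p of 0.0174 and 0.00645, and over all 16 alternatives on mouse counts adjusted p ran from 0.000405 to 0.203 for Plod1 and from 0.000139 to 0.152 for Plod3. Exons of Plod3 share 16.1% of their bases with Znhit1 on the opposite strand, a gene with 4788 counts over the 6 libraries.

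Both prolyl 4-hydroxylase alpha subunits, which carry the catalytic site of the enzyme, fell. P4ha1 (ENSMUSG00000019916, GRCm39 chr10:59159118-59209126, plus strand) had 135, 33 and 235 counts in siControl against 576, 54 and 152 in siAATF, or 108, 79.6 and 131 against 19.9, 10.9 and 8.42 TMM CPM. It fell by 3.03 on the log2 scale (SE 0.44, adjusted p = 0.000299, edgeR), 8.16-fold. P4ha2 (ENSMUSG00000018906, GRCm39 chr11:53991750-54022488, plus strand) stood at 30.5, 16.9 and 22.8 TMM CPM in siControl against 9.17, 4.43 and 7.04 in siAATF, and fell by 1.78 (SE 0.41, adjusted p = 0.00574, edgeR), 3.43-fold. With all libraries thinned to the smallest mouse total, the log2 fold change of P4ha2 was -5.83. That random draw kept a small part of its 266, 22 and 127 siAATF counts, so the value rests on few counts. The groups overlapped in neither gene.

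The proximal promoters of P4ha1, P4ha2, Plod1 and Plod3 are shown because they set hydroxylase genes that fell beside hydroxylase genes that did not pass the test. Each is the 250 bases before the start in RefSeq, build GRCm38.p6, 5′ to 3′ on the gene's strand. They lie at chr10:59323046-59323295 (plus), chr11:54100674-54100923 (plus), chr4:147936777-147937026 (minus) and chr5:136986769-136987018 (plus). Capitals mark the letters ACGTG on either strand, the core that hypoxia-inducible factors are known to bind, and GCGTG, the other form of that core, was searched on both strands as well.
P4ha1: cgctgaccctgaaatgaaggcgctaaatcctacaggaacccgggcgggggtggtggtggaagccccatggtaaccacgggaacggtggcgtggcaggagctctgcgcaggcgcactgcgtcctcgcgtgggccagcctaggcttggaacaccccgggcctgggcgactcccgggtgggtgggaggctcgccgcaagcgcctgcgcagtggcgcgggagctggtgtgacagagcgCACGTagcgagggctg
P4ha2: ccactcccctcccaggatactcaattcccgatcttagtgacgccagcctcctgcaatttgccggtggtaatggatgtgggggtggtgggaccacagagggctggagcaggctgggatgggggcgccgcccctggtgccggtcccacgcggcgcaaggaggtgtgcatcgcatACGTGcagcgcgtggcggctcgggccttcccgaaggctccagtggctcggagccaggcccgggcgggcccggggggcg
Plod1: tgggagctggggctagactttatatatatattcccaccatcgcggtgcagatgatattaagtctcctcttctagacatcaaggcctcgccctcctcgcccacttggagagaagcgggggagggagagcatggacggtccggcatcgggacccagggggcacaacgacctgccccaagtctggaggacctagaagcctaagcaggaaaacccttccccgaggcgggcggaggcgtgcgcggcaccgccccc
Plod3: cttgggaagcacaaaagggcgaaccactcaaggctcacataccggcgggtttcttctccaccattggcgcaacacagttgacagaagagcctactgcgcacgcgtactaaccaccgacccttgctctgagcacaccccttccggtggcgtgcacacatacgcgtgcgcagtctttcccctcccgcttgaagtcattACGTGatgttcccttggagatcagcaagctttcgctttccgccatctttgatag
ACGTG occurred 1 time in P4ha1, P4ha2 and Plod3, at 16, 78 and 54 bases before the start, and 0 times in Plod1. GCGTG occurred 2 times in P4ha1 and in P4ha2, 1 time in Plod1 and 3 times in Plod3. Among 32851 mouse promoters of this length, 16.57% held ACGTG, 28.16% held GCGTG and 38.60% held either. The letters were thus present both in genes that fell and in Plod3, which did not pass. Loxl4, the only other member with an entry, held 0 of the first and 1 of the second.

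The make-up of each subfamily within a library does not depend on how libraries are scaled to each other, so the shares were compared as well (counts per kilobase as a percentage of the subfamily). Lox made up 46.6%, 38.2% and 42.2% of lysyl oxidase counts per kilobase in siControl against 4.87%, 7.03% and 2.97% in siAATF. Wilson 95% intervals reached no lower than 31.7% in siControl and no higher than 22.5% in siAATF, with as few as 24 lysyl oxidase counts in siAATF replicate 2. Loxl2 also made up less, at 38.01 ± 4.88% against 26.0 ± 1.10%, whereas the share was larger in siAATF for Loxl1, at 15.002 ± 1.34% against 48.1 ± 4.87%, for Loxl3, at 3.99 ± 0.375% against 7.35 ± 0.894%, and for Loxl4, at 0.644 ± 0.660% against 13.6 ± 5.80%. Loxl1 was thus the main lysyl oxidase by share in the siAATF libraries and the third in siControl.

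Plod2 made up 26.6 ± 7.42% of lysyl hydroxylase counts per kilobase in siControl but 1.53 ± 0.523% in siAATF. Its values were 20.0%, 25.2% and 34.7% in siControl against 1.29%, 2.13% and 1.16% in siAATF, with 95% intervals of at least 15.6% and at most 4.56%. Plod1 and Plod3 took up the rest, at 38.6 ± 3.59% against 50.3 ± 7.66% and at 34.8 ± 4.06% against 48.2 ± 7.30%. P4ha1 held 72.1 ± 4.86% of the 2 prolyl 4-hydroxylase genes in siControl and 51.3 ± 9.49% in siAATF, P4ha2 the remainder. In all 10 shares the groups did not overlap, each with p = 0.1 in a two-sided exact permutation test (n = 3 per group) and adjusted p = 0.1 over the 10, the smallest that 3 libraries against 3 can give. A threshold of 0.05 could not be reached. Shares of a subfamily sum to 100% and are not independent of each other.

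**Figure D2:**
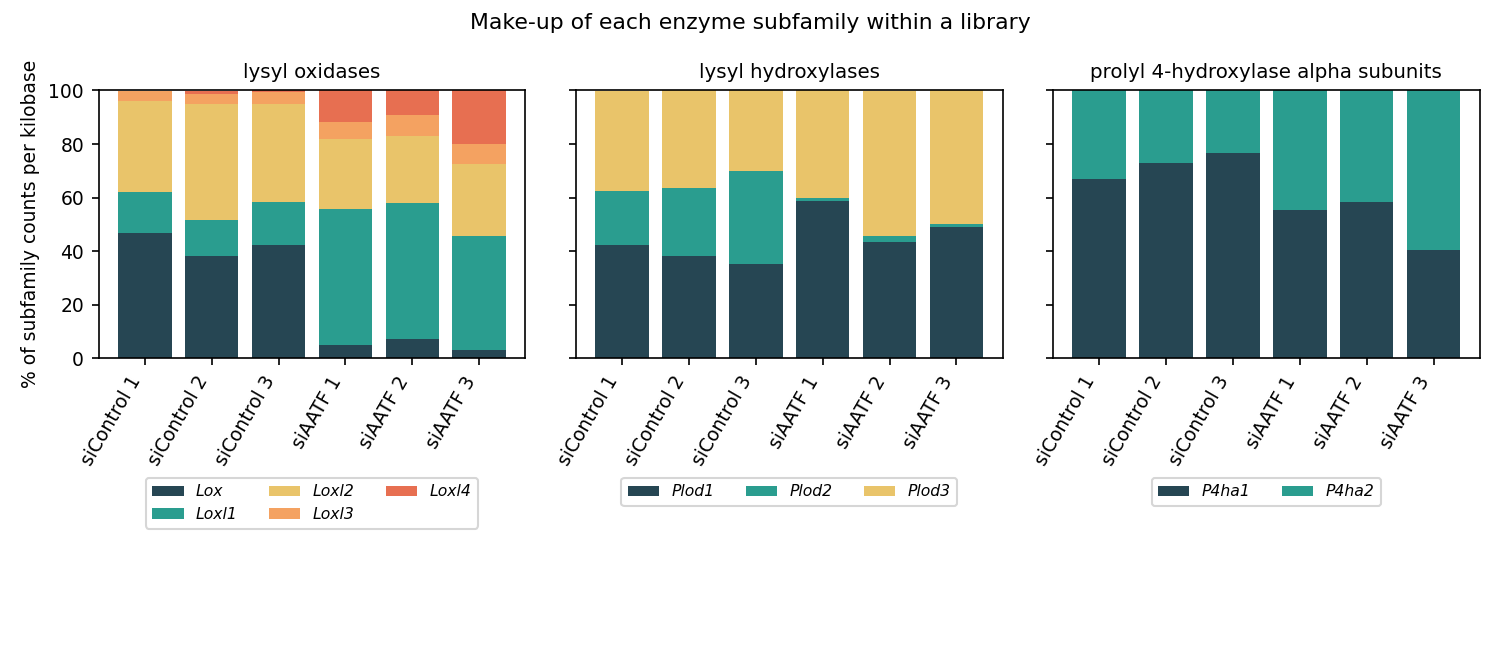
Share of each gene in the counts per kilobase of its subfamily, as stacked bars in percent, for each of the 6 libraries and for lysyl oxidases, lysyl hydroxylases and prolyl 4-hydroxylase alpha subunits. Lox makes up 42.4 ± 4.203% on average (SD) in siControl and 4.96 ± 2.03% in siAATF, and Plod2 26.6 ± 7.42% and 1.53 ± 0.523%.

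The enzymes were next set against their main substrates, the fibrillar collagen genes, by the log2 ratio of counts per kilobase within each library (1 count added). Collagen transcripts themselves differed strongly: Col1a1, the main chain of type I collagen, had 3274, 1634 and 6547 counts in siControl against 417, 47 and 166 in siAATF. Relative to summed fibrillar collagen, Lox was lower in siAATF, with a log2 ratio of -5.26 ± 0.487 in siControl and -7.60 ± 0.183 in siAATF, or 5.09-fold. For Loxl2 the groups overlapped, with a difference of 0.08 on the log2 scale (p = 0.9, exact permutation test). The ratio of Plod2 was 0.67 higher, without overlap. Plod1 and Plod3 stood 34.0-fold and 36.1-fold higher relative to collagen, P4ha2 20.2-fold, P4ha1 8.48-fold, Loxl1 4.78-fold and Loxl3 2.98-fold. The ratio of Loxl4 rested on 0, 2 and 5 counts in siControl, and its log2 difference of 5.07 became 4.38 without siControl replicate 1, 5.72 without siControl replicate 2, 5.69 without siAATF replicate 2 and 4.45 without siAATF replicate 3. Where groups did not overlap, p was 0.1, the smallest these exact permutation tests can give, and 20 ratios were computed. Col27a1 and Col5a3 made up 29.1% to 58.5% of the fibrillar collagen counts per kilobase in siAATF but 0.217% to 0.453% in siControl. Without these 2 genes in the denominator, chosen after seeing the data, Lox was 2.95-fold lower, Loxl2 was 0.86 higher on the log2 scale without overlap, Plod2 was 1.45 higher, and Plod1 and Plod3 were 58.6-fold and 62.2-fold higher (p = 0.1 each, exact permutation test).

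Relative to 12 fibroblast and stellate cell markers summed, Lox, Loxl2 and Plod2 were lower by differences of -5.78, -3.35 and -2.76 on the log2 scale, and Loxl3 and Loxl1 by -1.86 and -1.17. Plod1 and Plod3 were higher by 1.66 and 1.74. The ratios of P4ha1, P4ha2 and Loxl4 overlapped between groups, with differences of -0.35, 0.90 and 1.64. Dcn, the proteoglycan decorin, made up 10405, 1558 and 4577 of the 13721, 1728 and 5551 marker counts in siAATF but 546, 238 and 1373 of 2245, 955 and 4261 in siControl, and the differences shifted upward without it. The difference for Lox was then -3.12, but those for Loxl2 and Plod2 shrank to -0.70 and -0.11, and those for Loxl1, Loxl3 and P4ha1 changed sign, to 1.48, 0.80 and 2.31. Plod1 and Plod3 were at 4.31 and 4.398, Loxl4 at 4.298 and P4ha2 at 3.56.

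**Figure D3:**
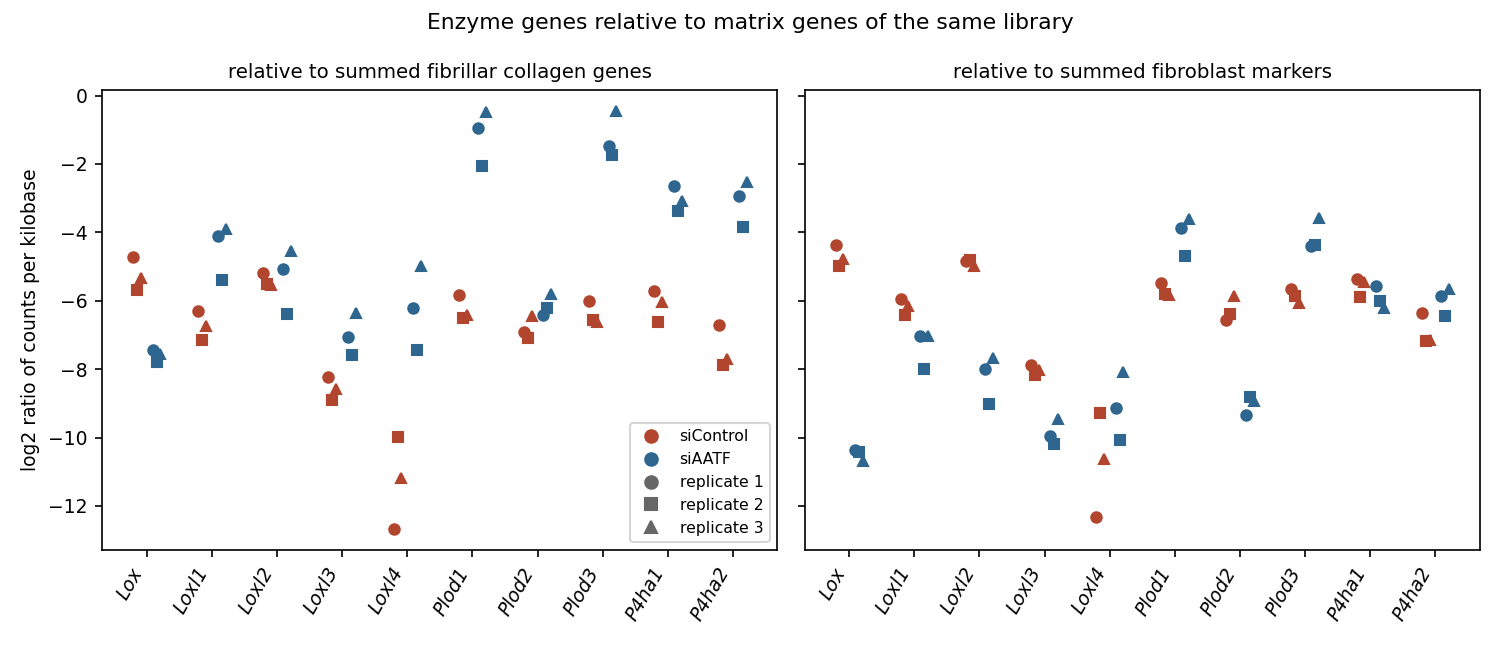
Log2 ratio of counts per kilobase of each enzyme gene to the summed fibrillar collagen genes (left) and to the summed fibroblast markers (right), with a point for each library, siControl in red and siAATF in blue. Lox is below siControl in both panels, Loxl2 overlaps in the left one, and Plod1 and Plod3 are above siControl in both.

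The same counts were also expressed as CPM of the human and mouse totals combined, which describes the whole tissue sample and not its mouse part. On that scale Lox had 8.57, 2.703 and 8.14 CPM in siControl against 0.535, 0.165 and 0.198 in siAATF, and Loxl2 7.04, 3.47 and 8.03 against 3.26, 0.661 and 2.04. Both remained lower in every siAATF library. Plod1 ran the other way, from 2.35 ± 1.05 to 23.7 ± 14.1, and so did Plod3, from 1.89 ± 0.786 to 18.8 ± 6.64, without overlap (p = 0.1, exact permutation test, n = 3 per group). Loxl1 overlapped at 1.59 ± 0.807 and 2.21 ± 1.53 (p = 0.7, exact permutation test, n = 3 per group). Scaled in this way, edgeR called Lox and Loxl2 lower, with log2 fold changes of -4.33 and -1.61, and Loxl4, Plod1, Plod3 and P4ha2 higher, where 0.660% of all genes were lower and 87.2% higher.

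All-gene medians were 0.50, -1.30 and 4.66 on the log2 scale under TMM scaling, under mouse library size alone and under all gene counts. All 10 enzyme genes lay below the median of all tested genes under each of the 3. A change of scaling moves all genes by nearly the same amount, so the 3 scalings do not test this separately. The direction against 0 held under the 3 scalings for Lox, Loxl2 and Plod2, although Plod2 no longer passed the test under all gene counts (-1.41, adjusted p = 0.0779, edgeR). Loxl3 was then at -0.34 (SE 0.88, adjusted p = 0.715, edgeR), and the other 6 turned. Under mouse library size alone, all 10 were lower than under TMM, from -10.3 for Lox to -2.40 for Loxl4. The human share of the counts moved with the groups in every library, and its part in these differences was not tested.

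**Figure D4:**
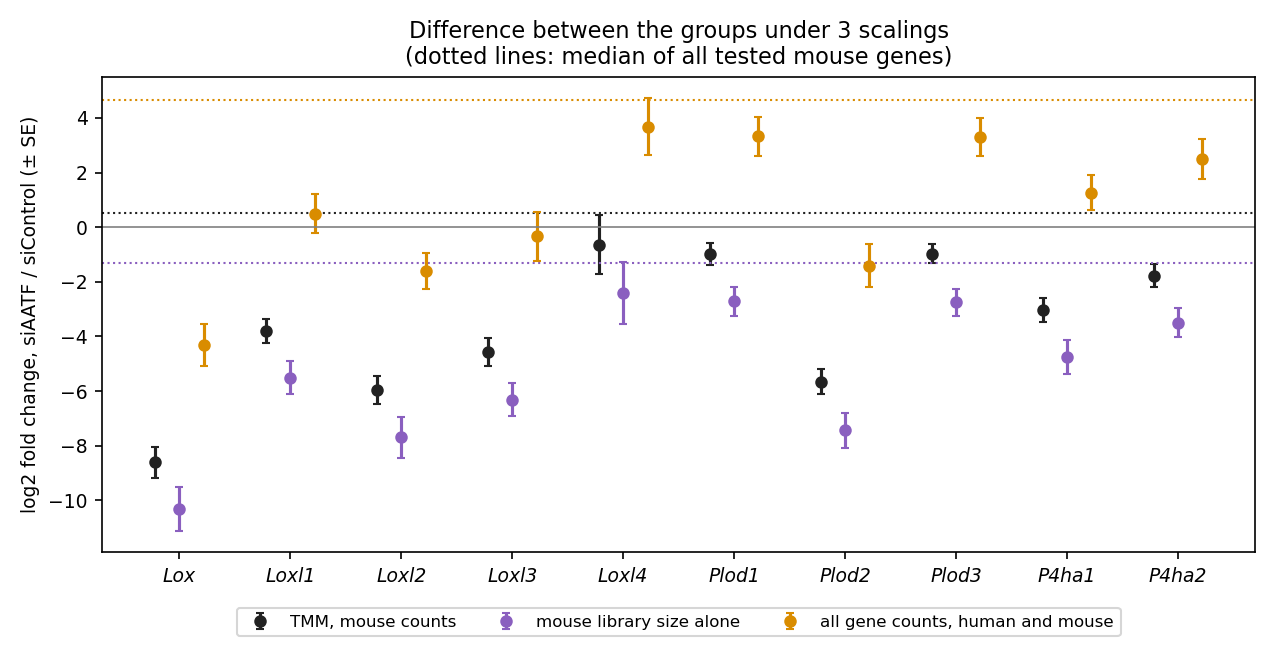
Log2 fold change of each enzyme gene, siAATF against siControl, with its SE, under TMM scaling (black), mouse library size alone (purple) and all gene counts (orange). Dotted lines give the median of all tested mouse genes under each scaling, at 0.50, -1.30 and 4.66, and every point lies below the line of its color. A change of scaling moves points and line nearly alike.

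Among 23 other genes that act on collagen, 20 were tested, of which 12 fell, 1 rose and 7 did not pass the test, with a median log2 fold change of -1.76. Scaled to all gene counts, 1 of them was lower and 12 were higher. The number of these genes that rose stayed at 1 in 13 alternatives and differed in 6. P4ha3, the third prolyl 4-hydroxylase alpha subunit, had 9, 6 and 23 counts in siControl against 3, 0 and 1 in siAATF, and fell (adjusted p = 7.77e-05, edgeR), with a pooled ratio of levels of 143 (95% counting interval 51.5 to 552). Fkbp10 and Serpinh1, which encode collagen chaperones of the endoplasmic reticulum, fell, with log2 fold changes of -5.36 (adjusted p = 2.27e-05, edgeR) and -4.92 (adjusted p = 7.21e-05, edgeR). Mia3, needed for the export of bulky collagen, rose from 55.3 ± 4.44 to 256 ± 68.3 TMM CPM (adjusted p = 0.00156, edgeR). Tll1, a procollagen C-proteinase, had 0 counts in all 6 libraries.

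Collagen genes, the substrates, also fell. Of 9 tested fibrillar collagen genes, 6 fell, 1 rose and 2 did not pass, with a median of -6.04, and of 14 other collagen genes 11 fell and 1 rose, with a median of -4.23. Scaled to all gene counts, 6 fibrillar collagen genes were lower and 3 higher, and 0 other collagen genes were lower and 5 higher. Col1a1 and Col1a2, the chains of type I collagen, fell, with log2 fold changes of -8.27 and -6.71 (adjusted p = 2.96e-05 and 5.76e-05, edgeR). Col11a1, a chain of type XI collagen, had 6, 4 and 7 counts in siControl and 0 in each siAATF library, at least 21.0-fold lower against the mean limit of 3 counts per library, and Col2a1 had 0 counts in all 6. Col27a1 rose by a log2 fold change of 2.98 (adjusted p = 0.0071, edgeR), and did not pass under limma-voom (2.60, adjusted p = 0.0503), under library size alone (1.06, adjusted p = 0.205, edgeR) or after thinning (2.00, adjusted p = 0.0594, edgeR). Of the other collagens, Col12a1, Col8a1 and Col4a2 had log2 fold changes of -5.55, -5.34 and -5.18 and fell, and Col18a1, a basement membrane collagen that hepatocytes are known to express, rose with a log2 fold change of 2.57 (adjusted p = 0.00242, edgeR). Under mouse library size alone, 0 genes of these lists, Mia3 included, were called higher.

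Lysyl oxidases also act on elastin, and of 13 elastic fibre genes 11 fell, none rose and 2 did not pass, with a median of -3.59. The microfibril genes Fbn2, Fbn1 and Fbln2 had log2 fold changes of -6.11, -5.73 and -5.61 and fell. Of 16 hypoxia-responsive genes outside the members, 11 fell, none rose and 5 did not pass, with a median of -2.05. Scaled to all gene counts, 0 elastic fibre genes were lower and 6 higher, and 0 hypoxia-responsive genes were lower and 11 higher. Adm, which encodes the peptide adrenomedullin, fell by 5.84 (adjusted p = 4.89e-05, edgeR), and Ankrd37 fell by 3.93 (adjusted p = 0.000627, edgeR). Car9, a carbonic anhydrase, had 3, 2 and 1 counts in siControl against 2, 0 and 4 in siAATF, and passed the test as lower (adjusted p = 0.0251, edgeR) on these few counts, with a pooled ratio of levels of 15.1 (95% counting interval 4.02 to 56.3).

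**Figure D5:**
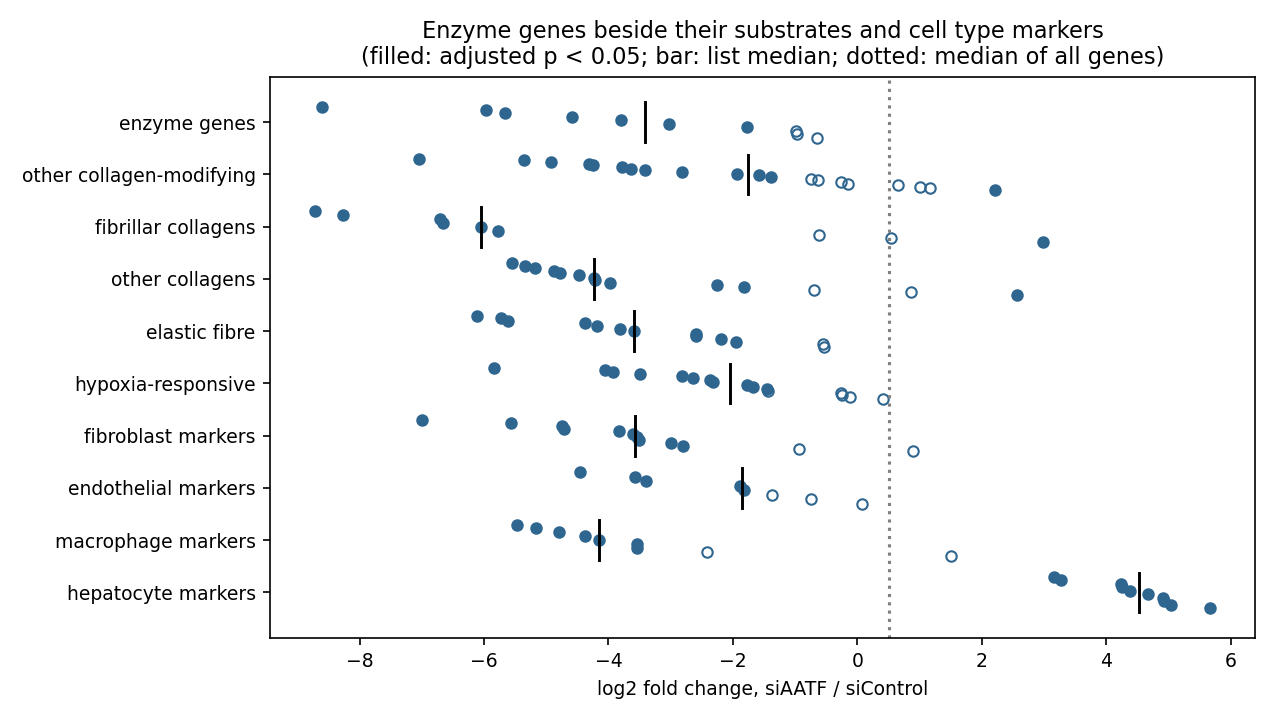
Log2 fold change, siAATF against siControl, of the enzyme genes, their substrates, other lists and cell type markers, with a point for each gene, filled where the adjusted p was under 0.05, a bar at the median of each list and a dotted line at the all-gene median of 0.50. The enzyme genes spread from -8.60 to -0.64, fibrillar collagens have the lowest median at -6.04, and all hepatocyte markers are to the right.

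Markers of stromal cells differed between the groups as well. Of 12 fibroblast and stellate cell markers, 10 fell and 2 did not pass, and their summed level was 1800 to 2374 TMM CPM in siControl and 308 to 473 in siAATF, beside 758 to 975 and 72.7 to 135 for the 10 enzyme genes. Of 8 endothelial markers 5 fell, with sums of 463 to 603 against 65.0 to 204, and of 9 macrophage markers 7 fell, with sums of 1590 to 4800 against 151 to 351. Scaled to all gene counts, 1 fibroblast and stellate marker was lower and 3 were higher, 5 endothelial and 2 macrophage markers were higher and 0 lower. Cholangiocyte markers fell in 2 of 5 and neutrophil markers in 3 of 5, and none of the 5 erythroid markers passed. Per all gene counts, 3 cholangiocyte, 1 neutrophil and 5 erythroid markers were higher and 0 lower. None of the marker genes was at 0 in a whole group, and the part of cell type make-up in the fall of the enzymes was not tested.

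The genes whose pattern over the 6 libraries was most like that of Lox were sought among 9465 genes with a mean of at least 50 counts, by Pearson's r of log2(TMM CPM + 1). Plekho1 (r = 0.9991), Myof (r = 0.9982), Fzd1 (r = 0.9978), Clec12a (r = 0.9976) and Esm1 (r = 0.9974) came first. With 2 groups that stand this far apart, 516 of the 9465 genes reached r of at least 0.95, the points being shared by all of these genes.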

How the data were processed

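RNA was measured in 6 libraries, 3 siControl and 3 siAATF, grouped by GEO's labels and matched to the tables by column name, with 0 count columns of other samples. The authors trimmed reads with Cutadapt, aligned them with STAR 2.7.11 to the human and mouse genomes together, dropped multi-mapping reads and reads assigned to both species, and deposited raw counts per gene from featureCounts 2.0.1 on gencode vM33 (GRCm39 for mouse). Neither normalization nor filtering was applied, and the strand setting is not given in the sources used here. Removal of reads shared by the species can lower the counts of conserved genes. Whether human reads were counted as mouse was not tested, and the siControl libraries held 27159173 to 53138655 human counts.

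Of 56884 mouse genes, 56323 were named from gencode vM39. Mouse totals ran from 213022 to 42563694, which makes the siControl libraries the less precise ones at an equal level. Lox, Loxl2, Loxl3 and Plod2 nevertheless had fewer counts in siAATF, 32 against 827 in siControl for Lox, and the other members had more. edgeR 4.0.16 (limma 3.58.1, R 4.3.3) was fitted on all mouse genes whose counts summed to 10 or more, with TMM scaling and the group as the only term, and Benjamini-Hochberg adjustment over 18018 genes. The study's own test was DESeq2 1.42.0, used here as an alternative. On simulated counts, 70.21% of 188 genes simulated with a log2 change of 3 were called, with 28 false calls among 17060 genes. Few genes were changed there, in both directions, whereas 32.0% were called in the data, so it did not test scaling error. Shares and ratios used counts per kilobase and exact permutation tests over libraries. Intervals and limits of 3 counts cover counting error only.

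Members and lists were chosen with earlier results of these data known. All members are named, as are the largest rise and 3 largest falls among called genes of each list other than the cell type markers, list genes at 0 in all libraries, Aatf, and the 5 genes most correlated with Lox. Alternatives were other normalizations, filters, tests and thinning, a replicate term, each library left out, other denominators, and, chosen after seeing the data, scaling to all gene counts. Replicate numbers did not pair the libraries. Human genes were used for their totals only and the human orthologs were not analysed here. Promoters came from RefSeq (GRCm38.p6), with 5 of 10 members searched and entries on chromosome 18, where Lox lies, left out.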

Additional observations from a re-analysis of the deposited data

How the results depend on the processing

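Lox, Loxl1, Loxl2, Loxl3, Plod2, P4ha1 and P4ha2 were called lower at an adjusted p under 0.05 in every alternative fit on mouse counts in which they could be tested, and Loxl4 in none. The study's own cutoffs (raw p below 0.05, log2 change of 2 or more in size) were applied to the edgeR fit, not to DESeq2. There 6 enzyme genes were lower, beside 13.1% of all genes lower and 13.6% higher, and P4ha2 was not among them. Thinning to the smallest mouse total moved Loxl1 (-7.04), Loxl3 (-5.57), Plod2 (-4.76), Plod3 (-1.97) and P4ha2 (-5.83). It was a random draw that kept a small part of the siAATF counts, so these values rest on few counts. Plod1 and Plod3 passed in 9 of 16 settings each. With single libraries left out, the log2 fold change of Lox ran from -9.06 to -8.29, and that of Plod1 from -1.24 to -0.66, called only without siAATF replicate 1 (adjusted p = 0.0403, edgeR). Genes called in all fell from 5762 to 3333 without siControl replicate 3. Scaling to all gene counts, chosen after seeing the data, turned the sign of Loxl1 (0.50), Loxl4 (3.67), Plod1 (3.33), Plod3 (3.31), P4ha1 (1.26) and P4ha2 (2.49), since the mouse share enters the denominator. Under it 2 enzyme genes, 6 fibrillar collagen genes, 1 other collagen-modifying gene and 0 other collagen, elastic fibre and hypoxia genes were lower, while 4, 3, 12, 5, 6 and 11 genes of these lists were higher. Of all tested genes, 0.660% were then lower and 87.2% higher. Requiring 10 counts in every library tested fewer genes (3552), among them 4 enzyme genes (Loxl1, Plod1, Plod3 and P4ha1), and all 4 were lower, beside 873 of the 3552, with 6 other collagen-modifying, 3 elastic fibre and 7 hypoxia genes. Of called genes, 55.0% were higher under TMM, 44.8% under upper-quartile scaling, 45.0% under limma-voom, 40.8% after thinning to the smallest mouse total, 9.33% under library size alone and 99.2% under all gene counts. Relative to fibrillar collagen, the difference of Loxl2 ran from -0.31 without siAATF replicate 3, over -0.0595 without siAATF replicate 1, to 0.61 without siAATF replicate 2, and was -0.0687 without Col3a1, while that of Lox was -1.56 without Col27a1 and Col5a3. Relative to fibroblast markers without Dcn, the difference was -3.12 for Lox, -0.70 for Loxl2 and -0.11 for Plod2, and it turned for Loxl1 (1.48), Loxl3 (0.80) and P4ha1 (2.31). In CPM of all gene counts, the difference of Loxl1 ran from -0.197 without siAATF replicate 1 to 1.32 without siAATF replicate 2. The causes were not tested. Libraries with the same number correlated at 0.145, 0.212 and -0.023, and not each library best with its own number. With the replicate block, 6766 of 18018 genes were called, 2912 lower and 3854 higher. Plod1 and Plod3 then passed (adjusted p = 0.0212 and 0.0299, edgeR) and 9 enzyme genes were lower.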
